A study of Drosophila melanogaster with 48 samples.

Results

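The mitochondrial ribosomal protein genes are those whose symbols begin with mRpL, named for the large subunit, or mRpS, named for the small subunit. They were taken as the probe sets with 1 gene symbol of that form in the platform annotation, and a gene with several such probe sets was represented by the probe set with the highest mean signal. This gave 69 genes, 44 named mRpL and 25 named mRpS, of 11982 genes with a probe set of their own on the array. All 69 passed the filter that kept the 60% of probe sets with the highest mean signal, as did 9419 genes in all. Probe sets that list mRpS10 or mRpL53 together with another gene were not used.

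The 48 Affymetrix arrays measured RNA from whole adult flies of Drosophila melanogaster, of 8 numbered lines (158, 304, 362, 379, 380, 774, 786 and 859). Larvae of each line had grown on medium enriched with tomato paste, on medium containing 9% ethanol, or on standard cornmeal-molasses medium. The adults of every group then lived on standard food at 25°C with 12 h of light and 12 h of darkness, so the food comparisons concern what the larvae ate. There are 2 arrays for each of 24 combinations (8 lines on 3 foods), which gives 6 arrays to a line and 16 to a food. The labels do not say what the line numbers stand for, give no sex, and give an age of 3 to 5 days for 4 arrays. They also leave unsaid whether both arrays of a combination stem from separately reared flies. P-values built on the spread of such arrays therefore measure that spread alone, and it may be technical.

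Mitochondria keep their own ribosomes, which translate the few proteins still encoded in mitochondrial DNA, and in animals these are core subunits of the respiratory chain and of ATP synthase. The RNA of this ribosome is transcribed inside the mitochondrion, whereas its proteins are encoded in the nucleus, made in the cytoplasm and imported. Many of the proteins have bacterial counterparts, and others are found in mitochondria alone. Germ cells of the ovary multiply their mitochondria while an egg grows, and in flies mutations of tko or bonsai, which encode 2 small-subunit proteins under other names, disturb growth and development.

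The signals were scaled by the authors to a common trimmed mean, and no array had a member at the floor of the scale. Mean log2 signals of the members ran from 8.61 (mRpL11) to 11.83 (mRpS5). Of the marker genes 8 of 8 for eggshell, 13 of 13 for accessory gland and 16 of 20 for testis passed the signal filter. Eggshell genes, which encode chorion and vitelline membrane proteins made by the follicle cells of late egg chambers, differed most between arrays. Their summed signal over 8 genes ran from 248 to 131386 on tomato arrays, from 1087 to 109958 on ethanol arrays and from 54543 to 124791 on standard arrays. The mean of their log2 signals is called the eggshell index below. The titles of 33 arrays separate their parts with spaces and those of 15 carry a hyphen, of which 11 are tomato arrays, 4 ethanol arrays and 0 standard arrays. Some results that rest on the arrays of low index or on 1 title style are given with and without them. This does not cover every line, nor the correlations among members.

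The family as a whole differed little in level between groups, relative to the spread of single arrays. Its level on an array was taken as the median over the 69 genes of the log2 signal minus that gene's mean over the 48 arrays. It averaged -0.012 ± 0.11 for tomato, -0.0036 ± 0.087 for ethanol and 0.025 ± 0.091 for standard food (SD, n = 8 line means each). Among lines the mean was highest in line 380, at 0.086 ± 0.13, and in line 859, at 0.074 ± 0.062, and lowest in line 774, at -0.075 ± 0.12, and in line 362, at -0.052 ± 0.21 (SD, n = 6 arrays each). The ranges of all 8 lines overlapped. Single arrays ran from -0.45, on the hyphen-titled tomato array of line 362, to 0.31, on the first standard array of line 380. In whole-body RNA, fewer cells of a type and less RNA per cell cannot be told apart.

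**Figure D1:**
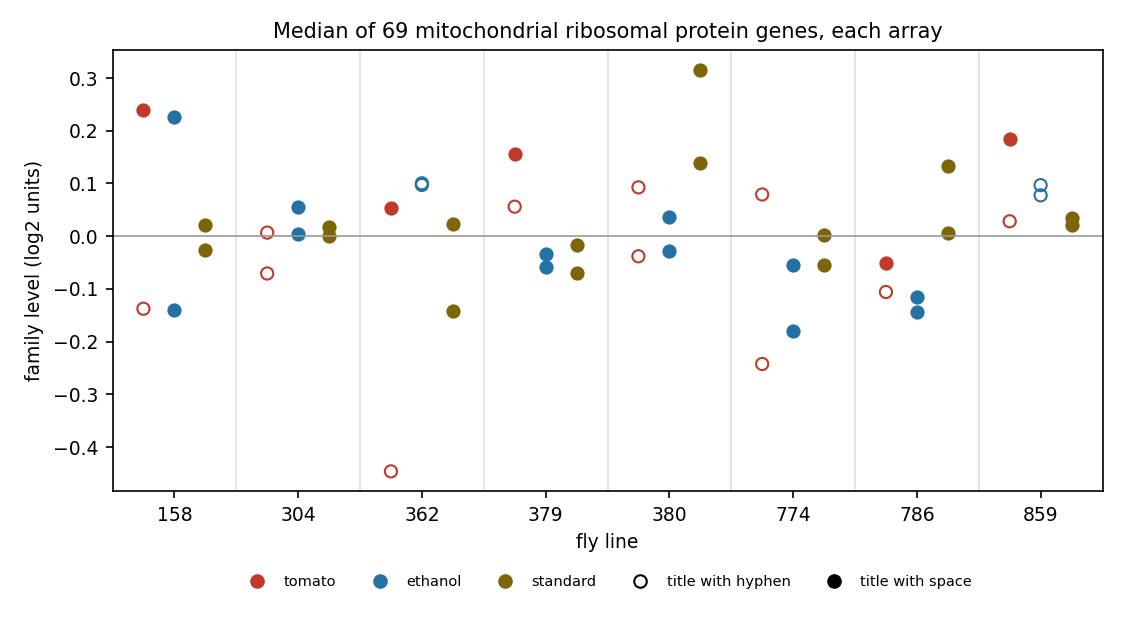
Family level of the mitochondrial ribosomal protein genes on each of the 48 arrays, in log2 units relative to the mean of all arrays (vertical axis), by fly line and, within a line, by larval food from left to right. Open circles are arrays with a hyphen in the title and filled circles those with spaces; the lowest point, at -0.45, is the hyphen-titled tomato array of line 362.

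Members also varied less than most tested probe sets, which were not matched to them for signal. The members' mean log2 signals had a median of 9.71, while the median of all tested probe sets was at most 9.03 on any array. The part of signal level in the smaller spread was not tested. The SD between the 2 arrays of a combination had a median of 0.18 log2 units over the 69 members and 0.33 over all 11261 tested probe sets. The range between the highest and the lowest line mean had a median of 0.45 over the members and 0.75 over all probe sets. It was above 1 log2 unit for 3 members, mRpL45, mRpS26 and mRpL38.

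The first question was which members differ between the lines, whatever the larval food. Of the 69 members 36 did so (52.2%), against 61.8% of all tested probe sets, in limma's F-test averaged over the foods with Benjamini-Hochberg adjusted p under 0.05. They were 22 of the 44 genes named mRpL and 14 of the 25 named mRpS. The lines did not order the members alike. Line 380 had the highest mean for 17 members and the lowest for 5, line 362 the highest for 5 and the lowest for 16, and line 379 the highest for 11 and the lowest for 10. Such counts were not made over all probe sets, so they show no order particular to the members. Over the comparisons of each line with the mean of the other 7 there were 95 calls, spread over 47 members. These were 17.2% of the member tests, against 19.8% of the tests of all probe sets. Recounts for single lines below that come without a share of all probe sets do not show a change particular to the members. A line is set there against the mean of the other 7, so a low line raises the differences of the rest. In standard food alone, with 2 arrays a line, 22 members differed between lines, all among the 36, against 48.6% of all probe sets there. With the variation from food to food within a line as the error 22 differed, of which 20 were among the 36, against 37.3% of all probe sets.

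**Figure D2:**
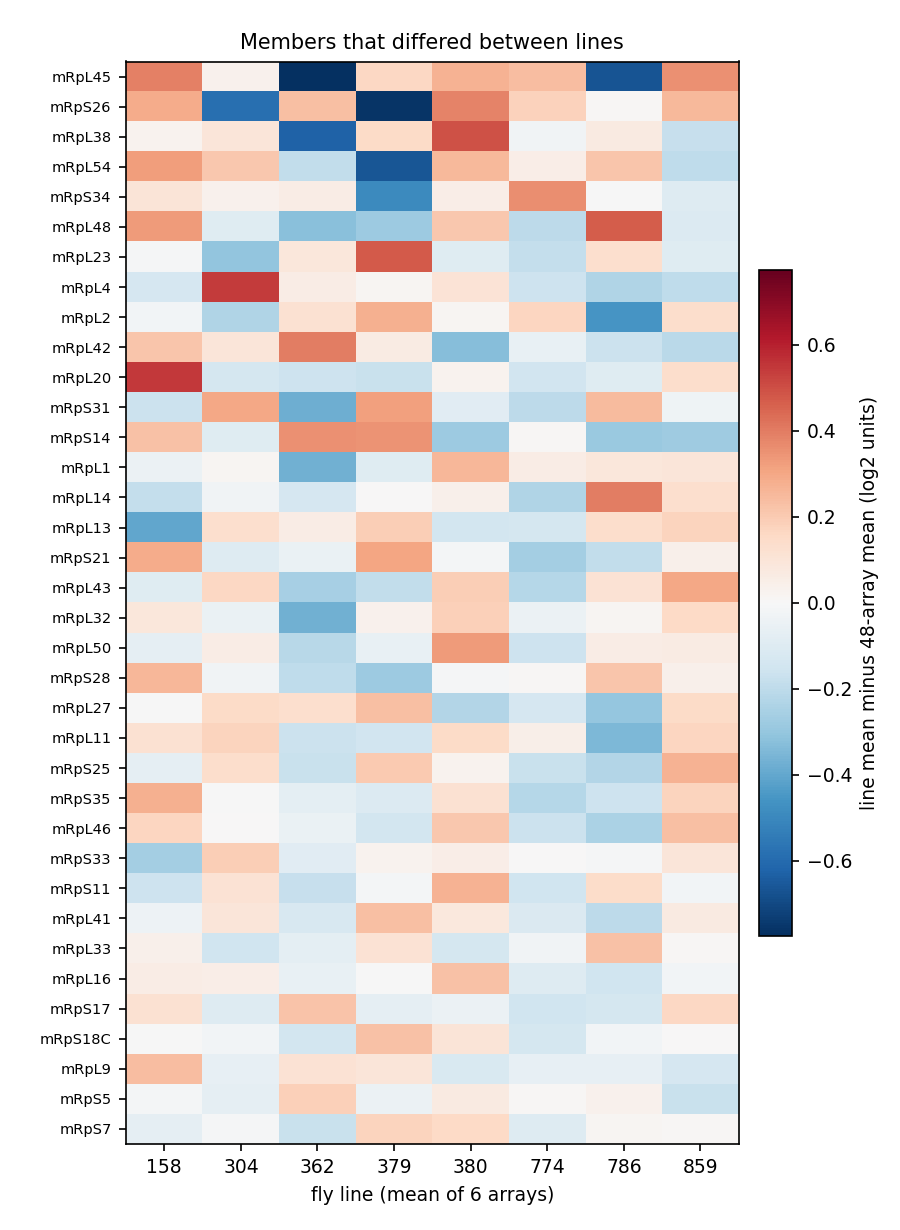
The 36 members that differed between lines, ordered from the largest to the smallest range of line means, with the difference of each line mean (6 arrays) from the mean of all 48 arrays as colour, in log2 units. mRpL45 is low in lines 362 and 786, mRpS26 in lines 379 and 304, and mRpL20 and mRpL4 are high in 1 line each.

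The clearest line difference belonged to mRpL45 (probe set 1637263_at), whose protein in mammals sits near the tunnel where new chains leave the ribosome, next to the inner membrane. Its log2 signal had a lowest value, median and highest value of 8.03, 8.10 and 8.56 over the 6 arrays of line 362. The same values were 8.13, 8.30 and 8.51 in line 786. In line 304 they were 8.86, 9.01 and 9.11. All 12 arrays of lines 362 and 786 lay below all 36 arrays of the other 6 lines, with 8.56 as the highest of the 12 and 8.86 as the lowest of the 36. Among the other lines the medians were 9.09 in line 379, 9.18 in line 774, 9.23 in line 380, 9.31 in line 859 and 9.37 in line 158, and neighbouring lines in this order overlapped. The difference from the mean of the other 7 lines was -0.89 (SE 0.06, limma adjusted p = 1.7e-12) for line 362, a fold of 0.541. It was -0.77 (SE 0.06, limma adjusted p = 4.1e-11) for line 786, a fold of 0.587. The gap was present within standard food alone, where the 2 arrays of line 362 read 8.03 and 8.08 and those of line 786 read 8.51 and 8.29. Line 304, the nearest of the other lines, read 8.86 and 8.92 there, and line 158 read 9.18 and 9.16. The values come from 1 probe set.

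**Figure D3:**
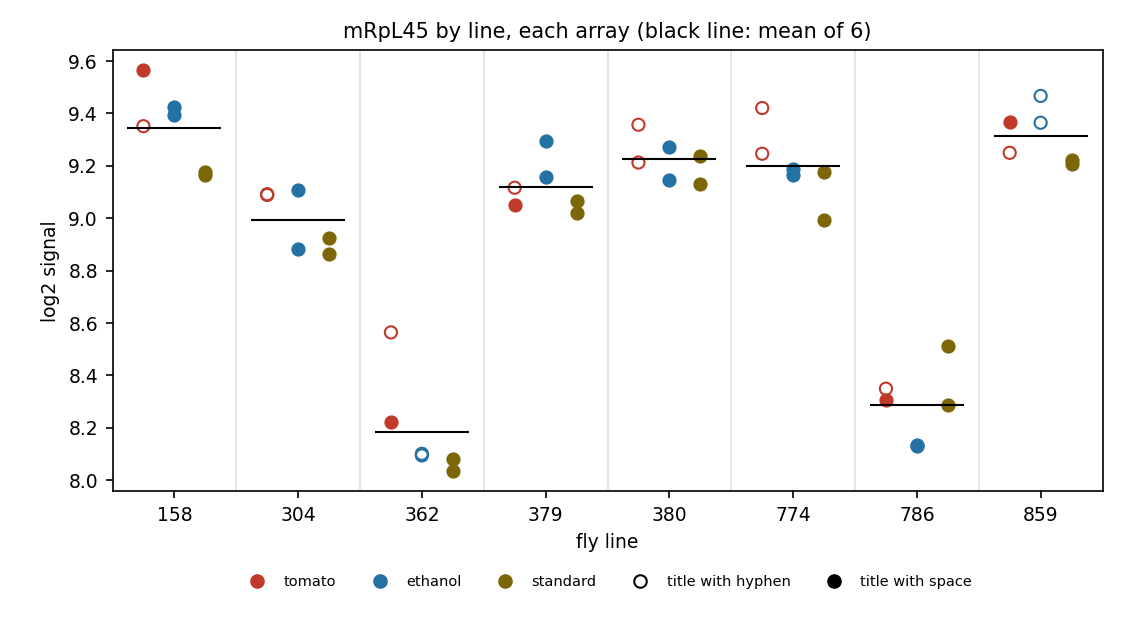
Log2 signal of mRpL45 on each of the 48 arrays by fly line, with food and title style marked as colour and fill and the mean of the 6 arrays as a black line. The 12 arrays of lines 362 and 786 lie at or below 8.56, and the 36 arrays of the other lines at or above 8.86.

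Line 379 carried the largest fall of mRpS26, along with falls of mRpL54 and mRpS34, which like mRpL45 and mRpL38 encode proteins with no counterpart in the bacterial ribosome. mRpS34 had 8.89, 9.13 and 9.24 as its lowest, median and highest log2 signal over the 6 arrays of line 379, against 9.39, 9.62 and 10.07 over the 42 arrays of the other lines. The groups did not overlap (difference -0.57, SE 0.06, limma adjusted p = 1.6e-07). mRpL54 read 8.45, 8.71 and 8.78 in line 379, against 8.53, 9.44 and 10.09 in the other lines, and 1 array of the other lines lay at or below its highest value. Its difference was -0.75 (SE 0.11, limma adjusted p = 9.3e-06). mRpS26 read 8.07, 8.49 and 8.90 in line 379, against 8.36, 9.43 and 10.12 in the others. That gene was low in line 304 as well, so 7 arrays of other lines lay at or below the highest of line 379 (difference -0.87, SE 0.12, limma adjusted p = 3.2e-06). In all, 10 members were higher in line 379 (background 9.47%) and 4 lower (background 8.09%), among the higher ones mRpL23, a protein of the exit tunnel's rim, at 0.54 (SE 0.08), and mRpS14 at 0.39 (SE 0.08). Without the 9 arrays of lowest eggshell index, which include 3 of line 379, the 14 calls of this line became 6. Those 3 include both of its ethanol arrays, so its mean then rested on tomato and standard food alone, unlike the other lines.

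Line 158 was marked by mRpL20, a protein of the large subunit with a bacterial counterpart. Its log2 signals were 10.31, 10.46 and 10.76 (lowest, median, highest) over the 6 arrays of line 158, against 9.34, 9.92 and 10.28 over the 42 others. No array of another line reached those of line 158 (difference 0.63, SE 0.08, limma adjusted p = 7.2e-07). mRpL13 stood lower, at 9.22, 9.56 and 9.84 in line 158, against 9.38, 10.05 and 10.37 in the other lines, with 5 of the 42 at or below its highest value (difference -0.46, SE 0.08, limma adjusted p = 7.3e-05). Altogether 9 members were higher in line 158 (background 6.16%) and 2 lower (background 7.29%). Leaving out the 9 arrays whose eggshell index was lowest gave 20 calls, and standard food alone gave 3.

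In line 304 the gene set apart was mRpL4, whose protein lines the exit tunnel. It read 10.14, 10.33 and 10.51 in the 6 arrays of line 304, against 9.26, 9.72 and 10.31 in the 42 arrays of the other lines, of which 2 reached the range of line 304 (difference 0.62, SE 0.08, limma adjusted p = 6.75e-07). mRpS26 had a difference of -0.67 (SE 0.12) and mRpL23 of -0.35 (SE 0.08), the reverse of its direction in line 379. Line 304 had 2 members higher (background 5.92%) and 3 lower (background 6.79%), and 12 in all without the 9 arrays.

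Line 362 had 10 members lower (background 10.4%) and 5 higher (background 9.08%). Beside mRpL45, mRpL38 was lower there, at 8.55, 9.20 and 9.75, against 9.30, 9.96 and 10.63 over the 42 other arrays, of which 13 lay at or below its highest value (difference -0.72, SE 0.12, limma adjusted p = 9.3e-05). mRpS23 stood at -0.50 (SE 0.16, limma adjusted p = 0.032), with 22 of the 42 other arrays at or below its highest value. Its lowest value there, 7.79, came from the hyphen-titled tomato array. Centred on the median of each array, line 362 had 10 members higher and 7 lower, where 13.5% of all probe sets were higher and 6.73% lower. After quantile normalisation it had 7 higher and 8 lower, against 11.7% and 9.18% of all. The 15 calls became 9 without that hyphen-titled tomato array, 24 without the other tomato array and 8 without the first ethanol array of the line.

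Line 380 had the most calls, 17 members higher (background 25.8%) and 7 lower (background 24.1%). mRpL38 read 10.02, 10.39 and 10.63 in line 380, against 8.55, 9.78 and 10.37 in the other lines, with 12 of 42 arrays at or above its lowest value (difference 0.56, SE 0.12, limma adjusted p = 0.0010). mRpL21 was higher by 0.46 (SE 0.15) and mRpS26 by 0.44 (SE 0.12). After quantile normalisation 13 were higher and 12 lower, against 24.1% and 21.9% of all probe sets. After centring each array on its median 10 were higher and 13 lower, where all probe sets moved likewise, to 19.2% higher and 29.0% lower. The 24 calls became 8 without the first standard array of the line and 12 without its first ethanol array. In the same line 70 of 77 respiratory chain genes were lower and 0 higher, with a median difference of -0.50, and the count stayed high on the other scales (66 lower after quantile normalisation and 71 after median centring). Among them COX7AL2, a cytochrome oxidase subunit gene, differed by -2.74 (SE 0.15) and ND-B8, of complex I, by -1.20 (SE 0.15). The median difference of the mitochondrial ribosomal protein genes in line 380 was 0.11, but 0.0014 after quantile normalisation and 0.0040 after median centring, where that of the respiratory chain was -0.34 and -0.61.

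Line 786 had 5 members higher (background 9.32%) and 9 lower (background 7.04%). mRpL2, a protein beside the peptidyl transferase centre, read 8.58, 9.14 and 9.36 there, against 8.97, 9.59 and 10.02 in the other lines, with 9 of 42 arrays at or below its highest value (difference -0.52, SE 0.07, limma adjusted p = 2.8e-06). mRpL48 was higher, at 8.79, 9.22 and 9.33, against 7.77, 8.57 and 9.51, with 10 of 42 arrays at or above its lowest value (difference 0.54, SE 0.13, limma adjusted p = 0.0033). The 14 calls became 8 without the second standard array and 9 without the space-titled tomato array of the line. Over the alternatives other than single arrays left out, they ran from 4 to 24.

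Lines 774 and 859 had 6 calls each. Over the alternatives other than single arrays left out, the calls ran from 1 to 21 in line 774 and from 1 to 9 in line 859. In line 774 mRpS34 was higher by 0.41 (SE 0.06, limma adjusted p = 3.0e-05), at 9.82, 9.95 and 10.07 against 8.89, 9.56 and 9.97 in the other lines, of which 3 of 42 arrays reached its range. mRpS21 differed by -0.30 (SE 0.06) and mRpS6 by -0.30 (SE 0.10), with 31 and 30 of the 42 other arrays at or below their highest values. That line had 2 members higher (background 9.47%) and 4 lower (background 5.86%). Its 6 calls became 3 without its standard array number 2 or its tomato array number 4, 13 without its tomato array number 3, and 11 without the hyphen-titled tomato array of line 158 or of line 362. In line 859 mRpL45 was higher by 0.41 (SE 0.06) than the mean of the other 7 lines, which holds the low lines 362 and 786. Its mean of 9.31 in line 859 lay close to 9.35 in line 158, 9.23 in line 380 and 9.20 in line 774, and 11 of the 42 other arrays lay at or above the lowest of line 859. mRpL43 was higher by 0.35 (SE 0.09), while mRpS14 differed by -0.31 (SE 0.08). It had 4 members higher (background 6.97%) and 2 lower (background 6.87%). Its 6 calls became 10 without the first tomato array of line 362 or the first ethanol array of line 158, and 3 without ethanol array number 3 of line 859.

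The larval food did not change any member past the threshold. Between tomato and standard food 0 of 69 members were higher (background 0.817%) and 0 lower (background 0.329%), while 10 of the 69 had an unadjusted p under 0.05 in limma (14.5%, against 21.2% of all probe sets). The median difference was -0.051 over the members and -0.0098 over all probe sets. mRpS29, whose protein binds GTP and is known in mammals as a regulator of cell death, had the smallest p. It read 8.55, 9.33 and 9.82 (lowest, median, highest of 16 arrays) after tomato food, against 9.24, 9.56 and 10.26 after standard food, and the groups overlapped widely. Its means were 9.26 ± 0.28 after tomato and 9.59 ± 0.20 after standard food (SD, n = 8 lines), a difference of -0.33 (SE 0.10, limma adjusted p = 0.090) with 7 of 8 lines lower. mRpL39 averaged 9.24 ± 0.34 after tomato and 9.59 ± 0.25 after standard food (SD, n = 8 lines), with a difference of -0.34 (SE 0.13, limma adjusted p = 0.15). mRpS6 had a difference of -0.23 (SE 0.07, limma adjusted p = 0.096) with all 8 lines lower, mRpL49 of -0.24 (SE 0.08) and mRpL38 of -0.27 (SE 0.10).

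Of these 5 differences 4 changed sign with the title style. In the arrays whose titles carry spaces, which keep all 16 standard and 5 tomato arrays, mRpL39 stood at 0.14, mRpL38 at 0.09, mRpS6 at 0.06 and mRpL49 at 0.06, while mRpS29 stayed below 0 at -0.086, and the median over the members was 0.12. Without line 379 8 members were called lower, namely mRpL12, mRpL15, mRpL38, mRpL39, mRpL49, mRpS6, mRpS18B and mRpS29, but 25.4% of all probe sets were called there too. The count was 4 without the space-titled tomato array of line 379, 2 without that of line 859 and 1 without that of line 158. With single arrays in place of line means 1 member was called, mRpS5, higher by 0.14 (SE 0.04). Unlike the 8, these counts come without a share of all probe sets and show no response particular to the members. Apart from the 5 above, these names were chosen after their values were seen.

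Between ethanol and standard food 0 members were called (background 0%), and 4 had an unadjusted p under 0.05 in limma (5.80%, against 5.58% of all). The median difference was -0.019. mRpL10, of the base of the ribosomal stalk, averaged 10.12 ± 0.19 after ethanol and 10.31 ± 0.13 after standard food (SD, n = 8 lines; difference -0.19, SE 0.07, limma adjusted p = 0.84). mRpL13 stood at 0.16 (SE 0.07) and mRpL33 at 0.13 (SE 0.06), each with higher means in 7 of 8 lines.

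Between tomato and ethanol food 0 members were higher (background 0.107%) and 0 lower (background 0%), and 2 had an unadjusted p under 0.05 in limma (2.90%, against 6.72% of all). mRpL46 averaged 9.54 ± 0.26 after tomato and 9.25 ± 0.34 after ethanol food (SD, n = 8 lines; difference 0.29, SE 0.12, limma adjusted p = 0.63). In the hyphen-titled arrays alone its difference was -0.21. In the test of whether the lines respond differently to the foods, 0 members were called (background 0%) and 9 of 69 had an unadjusted p under 0.05 in limma, against 12.9% of all probe sets. The smallest p belonged to mRpL41 (F = 3.61, limma adjusted p = 0.25), mRpL27 and mRpS21.

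Members moved together from array to array. After each line's mean was removed, a member's correlation with the mean of the other members over the 48 arrays had a median of 0.67, and it was above 0 for 65 of the 69 (94.2%), against a median of -0.13 and 46.3% above 0 for all probe sets with the members' mean. The members' median was 0.48 after quantile normalisation and 0.49 after median centring. With the mean of each combination of line and food removed the median was 0.74. mRpL17 (r = 0.91), mRpL22 (r = 0.89) and mRpS18A (r = 0.88) followed the others most closely. The other end was mRpS9 (r = -0.49), mRpL28 (r = -0.45) and mRpL45 (r = -0.20), whose levels ran against the rest. These values describe arrays that share their scaling and their RNA, and the extremes were chosen after their values were seen.

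Most members moved with the eggshell index, as did most probe sets on the array, but among the members rises outnumbered falls. Within lines and foods 46 members rose with the index (background 37.9%) and 6 fell with it (background 42.3%) in limma, with a median slope of 0.041 log2 units per unit of the index, against -0.016 over all probe sets. mRpL15 rose most clearly, by 0.11 per unit (SE 0.01, limma adjusted p = 2.1e-10). Its signal was 9.05 on the tomato array of line 362 with an index of 4.50, 9.23 on the ethanol array of line 158 with an index of 5.08, and 9.21 and 9.10 on the ethanol arrays of line 379 with indices of 6.21 and 7.83. The other array of each of the first 2 combinations, with indices of 12.83 and 13.02, read 9.79 and 10.08. Of the other 7 of the 8 members of smallest p, mRpS23 had the steepest slope, at 0.15 per unit (SE 0.02, limma adjusted p = 1.1e-08), followed by mRpL21 at 0.12, mRpL3 at 0.11, mRpL12 of the ribosomal stalk at 0.11, mRpS18A at 0.10, mRpS18B at 0.10 and mRpL19 at 0.09. Outside these 8, mRpL39 rose by 0.14 per unit (SE 0.02) and mRpL38 by 0.099 (SE 0.016). In mammals the counterpart of mRpS18A lies in the large subunit in spite of its name.

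The 6 members that fell were mRpL28 at -0.070 per unit (SE 0.014), mRpL27 at -0.058, mRpS14 at -0.036, mRpS9 at -0.034, mRpL9 at -0.031 and mRpL45 at -0.025, named after their values were seen. mRpL28 read 12.07 on the tomato array of line 362 with the lowest index, against 11.98 on its partner, and 11.95 on the ethanol array of line 158, against 11.37 on its partner. After quantile normalisation 27 members rose and 8 fell, against 35.0% and 40.5% of all probe sets. After centring each array on its median 22 rose and 11 fell, against 30.4% and 51.3% of all. With this scaling rises became fewer and falls more frequent among the members and among all probe sets. Without the 9 arrays of lowest index 33 rose and 1 fell, with a median slope of 0.11, where 65.2% of all probe sets passed in either direction. In standard food alone, where the index spanned 12.38 to 13.80, 0 members passed and the median slope was 0.11, while among space-titled arrays 18 rose and 8 fell, where 60.7% of all probe sets passed. Without the hyphen-titled tomato array of line 362 32 rose and 7 fell. No share of all probe sets is given there or for standard food alone, so neither count shows a change particular to the members.

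**Figure D4:**
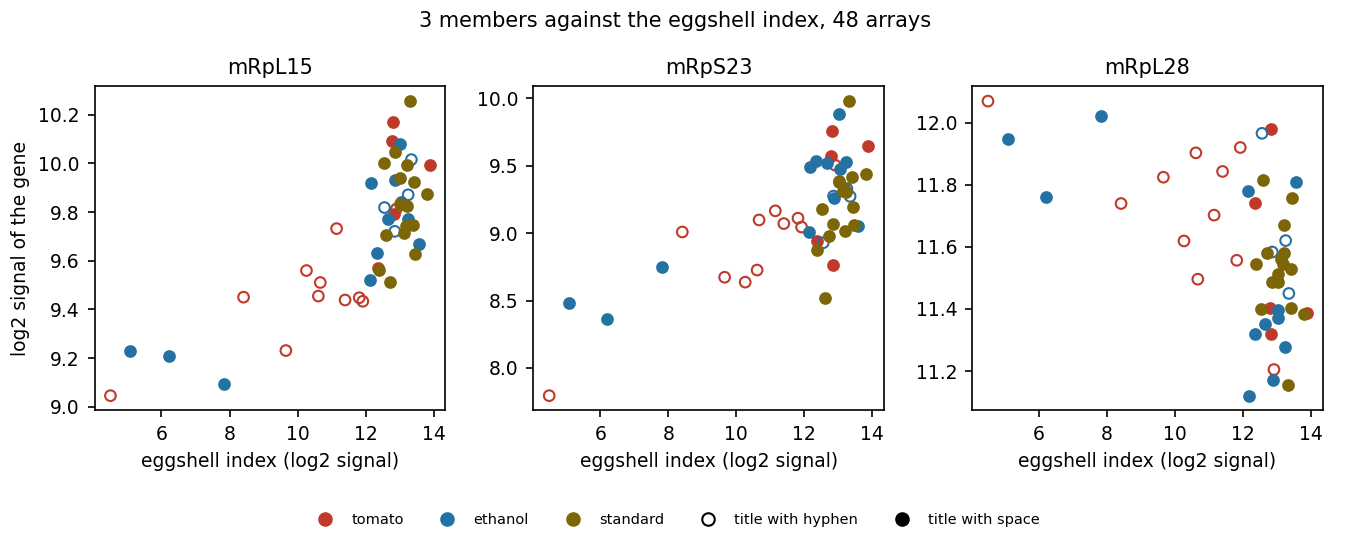
Log2 signals of mRpL15, mRpS23 and mRpL28 (vertical axes) against the eggshell index, the mean log2 signal of 8 eggshell genes (horizontal axes), on 48 arrays. mRpL15 is lowest, at 9.05, on the array with an index of 4.50, where mRpL28 reads 12.07.

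Gene groups around the mitochondrial ribosome split along the same index, with which 37.9% of all probe sets rose and 42.3% fell. Of 77 respiratory chain genes 75 fell and 1 rose with it, with a median slope of -0.084, and ND-B14, a complex I gene, stood at -0.093 (SE 0.019). Of 17 mitochondrial aminoacyl-tRNA synthetase genes, which charge the tRNAs used by this ribosome, 13 rose and 3 fell, GluRS-m by 0.16 (SE 0.02). Of 14 genes of mitochondrial DNA copying and transcription 11 rose and 0 fell, among them mtSSB, which coats single-stranded mitochondrial DNA, by 0.23 (SE 0.02), and PolG1, the mitochondrial DNA polymerase, by 0.22 (SE 0.03). All 24 tested ribosome biogenesis genes but 3 rose, 21 in number, with Nop60B at 0.30 (SE 0.03). Of 9 mitochondrial translation factor genes 6 rose and 1 fell, and of 19 genes of mitochondrial import and chaperones 10 rose and 6 fell. Of 41 cytoplasmic ribosomal protein genes 3 rose and 27 fell, but 12 rose and 6 fell after quantile normalisation. The respiratory chain, synthetase, mitochondrial DNA and ribosome biogenesis genes kept their main direction on the other scales. Among the separately named members of the mitochondrial ribosome, bonsai rose by 0.076 per unit (SE 0.012) and tko by 0.031 (SE 0.014), and tko also differed between lines, with -0.30 in line 774 (SE 0.07, limma adjusted p = 0.0045).

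The title styles could be compared in 5 tomato combinations that hold 1 array of each. Within these pairs 0 members were higher (background 17.9%) and 19 lower (background 25.2%) in the hyphen-titled arrays, and 63 of 69 had lower means. Among all probe sets 5370 of 11261 had lower means. The median difference was -0.26 over the members and 0.048 over all probe sets. mRpL39, a large-subunit protein found in mitochondria alone, had log2 signals of 8.78, 8.09, 9.31, 8.89 and 9.38 on the hyphen-titled arrays of lines 158, 362, 379, 786 and 859, against 9.94, 9.20, 9.84, 9.34 and 10.01 on their space-titled partners. It was lower in all 5 pairs, although the groups overlapped between lines (difference -0.78, SE 0.15, limma adjusted p = 0.0066). mRpS23 read 8.64, 7.79, 9.10, 8.73 and 9.17 on the hyphen-titled arrays, against 9.76, 8.76, 9.64, 8.94 and 9.58 on the space-titled ones (difference -0.65, SE 0.16, limma adjusted p = 0.015). mRpS6 read 8.87, 8.86, 9.04, 8.86 and 8.93 on the hyphen-titled arrays, against 9.15, 9.45, 9.31, 9.26 and 9.59. Those 2 sets of mRpS6 values did not overlap (difference -0.44, SE 0.12, limma adjusted p = 0.022). The differences were -0.56 (SE 0.13) for mRpL38, -0.51 (SE 0.14) for mRpL48, -0.50 (SE 0.13) for mRpL12, -0.46 (SE 0.13) for mRpL15 and -0.46 (SE 0.12) for mRpL49.

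The pairs differed in size. Members were lower in the hyphen-titled array in 66 of 69 cases in line 362, 60 in line 158, 53 in line 859, 49 in line 379 and 38 in line 786. Of all probe sets 51.7%, 45.8%, 51.0%, 52.1% and 56.4% were lower in the same pairs, so that the share of members in line 786 was near the background. All 5 pairs had lower values for 31 members, a count that was not made over all probe sets. The median member difference was -0.58 in line 362, -0.38 in line 158, -0.13 in line 859, -0.12 in line 379 and -0.033 in line 786. The count of 19 became 5 without the pair of line 362, 7 without that of line 158, 10 without that of line 379 and 4 without that of line 859. No share of all probe sets stands beside these recounts, so they show no change particular to the members. The eggshell index was lower in every hyphen-titled array, at 4.50 against 12.83 in line 362, 10.26 against 12.81 in line 158, 10.67 against 13.88 in line 379, 10.61 against 12.36 in line 786 and 11.15 against 12.78 in line 859. The summed signals of oocyte and nurse cell markers and of male accessory gland markers were also lower in the hyphen-titled array of all 5 pairs, and those of neuronal markers were higher in all 5. For oocyte and nurse cell markers they were 7642 against 24912 in line 362 and 25864 against 41454 in line 859. For accessory gland markers they were 29614 against 54514 in line 786 and 40547 against 43024 in line 859, and for neuronal markers 15141 against 7591 in line 158. With the index as a covariate 0 members passed, against 5 of all 11261 probe sets, and mRpL39 stood at -0.53. That fit rests on these 5 pairs, in all of which the index was lower in the hyphen-titled array. It therefore cannot separate the index from title style, and the loss of calls answers neither question. The part of these markers in the difference was not tested.

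Scaling mattered here as well. The median log2 signal of the tested probe sets lay lower in each hyphen-titled array than in its partner, on average by 0.158 units. After centring on the median 2 members were higher, mRpL28 by 0.35 and mRpS9 by 0.32, and 4 lower, mRpL12, mRpL38, mRpL39 and mRpS23, where 30.0% of all probe sets were higher and 17.7% lower. After quantile normalisation 0 were higher and 7 lower, against 17.3% and 20.3% of all. Before such scaling, 17.9% of all probe sets were higher and 25.2% lower in these pairs. There 17 of 24 ribosome biogenesis genes and 9 of 17 mitochondrial aminoacyl-tRNA synthetase genes were lower and 0 of either higher. Of 77 respiratory chain genes 6 were higher and 0 lower (2 higher after quantile normalisation and 47 after median centring). bonsai (-0.27, SE 0.15) and tko (-0.23, SE 0.14) did not pass.

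**Figure D5:**
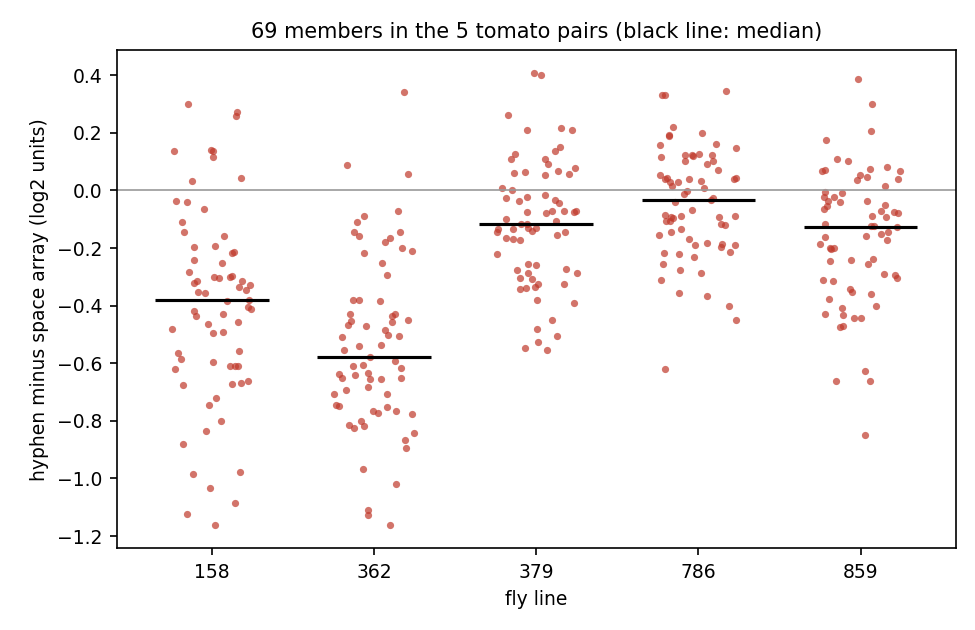
Difference in log2 signal between the hyphen-titled and the space-titled tomato array of the same line, for each of the 69 members (points, spread sideways to be seen) with the median as a black line, in the 5 lines that hold such a pair. The medians run from -0.58 in line 362 to -0.033 in line 786.

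A second probe set was present for 2 members. For mRpS11 the other probe set correlated with the chosen one at r = 0.63 over the 48 arrays and gave no line difference (limma adjusted p = 0.33, against 0.0035 for the chosen one). For mRpL47 the correlation was r = 0.76, and the other probe set differed between lines (limma adjusted p = 0.0205) where the chosen one did not pass (limma adjusted p = 0.135). Line calls of these 2 genes thus depended on the probe set.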

How the data were processed

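The authors deposited linear intensity values from MAS5, the software named in the submitters' processing notes with no version. Each array's mean after trimming 2% at both ends was 500 to 3 digits. Values under 1 were raised to 1 and log2 values used without another normalisation. From 18952 probe sets 183 controls were removed, and of the rest the upper 60% by mean log2 signal were tested (11261, mean signal at least 59.7). No 2 arrays held identical values, and arrays of a combination correlated at 0.783 to 0.991. The number of arrays limits the precision.

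Names came from the platform annotation, updated by gene number through RefSeq (13544 of 13647 probe sets with 1 symbol matched, 402 had several symbols and 4720 none listed). limma 3.58.1 in R 4.3.3 was used with an intensity trend. Foods were compared on the 24 combination means with line as a term (14 residual degrees of freedom). Lines (7 degrees of freedom) and line by food (14) were tested on 48 arrays with 24 residual degrees of freedom. The eggshell slope had line and food as terms, and the title styles had line as a block. Calls were made at Benjamini-Hochberg adjusted p under 0.05 over all tested probe sets, and the fits were tested on simulated data.

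The members, the lists and the tests were chosen with earlier results of these data known. Named members were, by rule, up to 8 called members of smallest p for a food, slope or title comparison (the 5 of smallest p where under 3 were called), the 12 called members of largest line range, the 8 of smallest p for line by food, the 3 largest called differences of each line, tko, bonsai and mRpL12, and up to 2 genes of each related list. The eggshell index used 8 genes with a probe set of their own. Alternatives varied the scaling, filter, pseudocount, error term, arrays and covariates. Arrays that share a number were checked for pairing: over 15 combinations, the correlations of array 1 minus array 2 ran from -0.77 to 0.71 with a median of -0.016, and 29 of 105 were above 0.1, so the numbers were not taken to pair samples.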

Additional observations from a re-analysis of the deposited data

Results flagged for a closer look

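Among groups of 6 arrays of a line or 8 line means, 146 were checked for a value far from the others by Dixon's test, and 7 (4.79%) were past the 95% critical value. Chance gives about 1 in 20. Of line means after standard food, the family level of line 380 (0.23) stood above the next line (0.069). Of line means after tomato food, mRpS6 was low in line 774 (8.71) and mRpL38 low in line 362 (8.87). mRpL13 was low in line 158 after standard food (9.29). The hyphen-titled tomato array of line 362 stood apart among the 6 arrays of that line for mRpL45 (8.56, the highest) and for mRpS31 (9.15, the lowest). The hyphen-titled tomato array of line 786 was the lowest of its line for mRpL48 (8.79).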

How the results depend on the processing

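The calls rest on small differences, 2 arrays a combination and scaled signals whose medians differ between arrays. Tomato minus standard food gave 0 called members under most alternatives, but 1 with single arrays, 8 without line 379, and 0 to 4 with single arrays left out. Ethanol comparisons gave 0 throughout. The line count of 36 became 58 with the eggshell index as a covariate, 22 with line by food variation as the error and 22 in standard food alone, and ran from 33 to 49 with single arrays left out. The 95 calls of single lines became 146, 51 and 55 under the same 3 settings, and 80 to 119 with arrays left out. Shares of all probe sets, which changed with the setting too, are not set beside the counts here. The slope count of 52 became 33 with median centring, 34 without the 9 arrays of lowest index, 26 in space-titled arrays and 0 in standard food. The title count of 19 became 7 with quantile normalisation, 6 with median centring, 0 with the index as a covariate (an alternative chosen after seeing the data) and 4 to 17 with a pair left out. The fit with the index cannot separate it from title style, because the index was lower in the hyphen-titled array of every pair. With array number as a replicate block the counts were 0, 0 and 0 for the foods, 53 for lines, 0 for line by food, 124 for single lines and 44 for the slope. Array numbers above 2 occur only on hyphen-titled arrays and on no standard array. This block is therefore confounded with title style and food, and is no separate check from the space-titled arrays. Differences that turned with this block were mRpS6 0.018, mRpL38 0.054 and mRpL39 0.031 for tomato minus standard food, and mRpS6 0.056, mRpL50 0.029 and mRpL55 0.026 for tomato minus ethanol food. In space-titled arrays mRpS6 was at 0.058, mRpL49 at 0.057, mRpL38 at 0.093 and mRpL39 at 0.14 for tomato minus standard food, and mRpS6 at 0.11, mRpL50 at 0.16 and mRpL55 at 0.080 for tomato minus ethanol food. In hyphen-titled arrays mRpL46 was at -0.21 and mRpL2 at -0.017 for tomato minus ethanol food, chosen after seeing the data. None of these 15 passed either way, and the cause was not tested. Over all named members, 907 of the values under alternatives kept direction and side of the threshold, 43 lost the call and 5 gained it.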
